A study of Homo sapiens with 6 samples.

Results

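The elements described here are long terminal repeat (LTR) elements of the human genome that were transcribed in all 4 atypical teratoid rhabdoid tumor (AT/RT) cell lines and that lay far from annotated transcripts. They were selected on the deposited values. An element was a member when its TPM was 10 or more in at least 1 library of each cell line and when it lay more than 10000 bp from the span of every transcript measured in the same libraries. Of 720177 LTR elements, 9745 (1.35%) met the TPM rule. Of the 333195 gene-distant elements, 583 (0.175%) met it and are the members. Among the 386982 elements inside a transcript span or within 10000 bp of one, 9162 (2.37%) met it. These shares were fixed by the rule and are given as a description.

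The 4 lines, named CHLA with the numbers 02, 04, 05 and 06, gave 6 libraries of total RNA. AT/RT is a malignant brain tumor of early childhood, and its defining lesion is loss of SMARCB1, a subunit of the SWI/SNF chromatin remodeling complex. All lines were kept without further treatment in DMEM:F12 medium that held EGF, basic FGF and B-27, and the labels give no genotype for any of them. CHLA 02 and CHLA 05 had 1 library each, while CHLA 04 and CHLA 06 had 2 technical replicates each. Every line was therefore 1 biological sample, no line without AT/RT origin was included, and no test between lines was possible. TPM of LTR elements was scaled within each library without the genes, so it cannot be set beside TPM of genes. Recovered LTR reads ranged from 355302 to 511408 per library. SMARCB1 stood between 13.5 and 26.2 TPM and NES between 5.21 and 27.6 TPM in the 6 libraries. PAX6 ranged from 0.604 to 36.9 TPM, the more abundant of the TUBB3 identifiers from 205 to 455 TPM, and POU5F1 from 0 to 0.194 TPM.

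LTR elements are the remains of retroviruses that entered the germ line and of related transposons. A complete copy has an internal sequence with the viral genes between a pair of LTRs, and each LTR carries its own promoter, enhancers and polyadenylation signal. Most copies have lost the internal part by recombination and remain as a solitary LTR. The names follow RepeatMasker, in which the suffix -int marks an internal sequence. MLT1, MST and THE1 are the ERVL-MaLR group, old mammalian transposons without an envelope gene. HERVK-int and the LTR5 names belong to HERV-K (HML-2), the youngest endogenous retroviruses of the human genome. RNA over an LTR element can begin at its own promoter or can be part of a longer transcript that runs through it, and TPM per element does not tell these apart.

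Sequences of 5 members that recur below were read from GRCh38, the build of the files, on the strand of the element from 5′ to 3′. They are the most abundant member outside a pair of arrays on chromosome 9 (MamGypLTR3a), a member from each of 3 loci described below and the HERVK-int on chromosome 2. For elements longer than 300 bases only their last 300 are shown. Capitals mark AATAAA, the usual polyadenylation signal.
MamGypLTR3a, chr2:94189549-94189848, minus strand: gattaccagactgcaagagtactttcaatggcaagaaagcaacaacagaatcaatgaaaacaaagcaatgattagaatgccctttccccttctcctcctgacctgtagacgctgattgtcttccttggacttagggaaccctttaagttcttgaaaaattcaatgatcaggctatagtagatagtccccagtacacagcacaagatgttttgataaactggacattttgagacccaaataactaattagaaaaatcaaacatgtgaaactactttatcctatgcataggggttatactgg
MER65A, chr2:223717518-223717817, minus strand: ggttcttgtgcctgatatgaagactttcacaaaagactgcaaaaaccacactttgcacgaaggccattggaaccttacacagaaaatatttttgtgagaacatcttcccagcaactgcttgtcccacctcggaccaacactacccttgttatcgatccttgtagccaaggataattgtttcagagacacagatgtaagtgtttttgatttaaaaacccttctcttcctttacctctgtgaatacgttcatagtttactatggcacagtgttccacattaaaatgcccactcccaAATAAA
LTR53, chr20:29457034-29457333, minus strand: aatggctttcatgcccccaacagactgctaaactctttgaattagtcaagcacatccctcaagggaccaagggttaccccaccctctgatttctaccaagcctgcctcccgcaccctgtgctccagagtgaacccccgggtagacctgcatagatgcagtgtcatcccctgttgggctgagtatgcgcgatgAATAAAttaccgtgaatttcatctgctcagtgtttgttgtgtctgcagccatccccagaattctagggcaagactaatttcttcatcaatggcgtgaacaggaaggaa
MLT2C1, chr1:9152477-9152776, minus strand: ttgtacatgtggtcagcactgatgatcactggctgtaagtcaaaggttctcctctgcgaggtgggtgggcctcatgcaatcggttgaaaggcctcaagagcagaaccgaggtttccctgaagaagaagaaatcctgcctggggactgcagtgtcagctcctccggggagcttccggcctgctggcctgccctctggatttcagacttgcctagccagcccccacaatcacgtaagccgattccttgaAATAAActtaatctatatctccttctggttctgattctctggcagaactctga
HERVK-int, chr2:186521159-186521438, plus strand: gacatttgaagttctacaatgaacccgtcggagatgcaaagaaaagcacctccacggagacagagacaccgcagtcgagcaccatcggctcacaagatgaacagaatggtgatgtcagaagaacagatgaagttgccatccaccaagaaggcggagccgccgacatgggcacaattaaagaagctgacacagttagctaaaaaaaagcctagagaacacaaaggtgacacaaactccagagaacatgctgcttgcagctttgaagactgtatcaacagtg
AATAAA stood in the printed bases of MER65A, LTR53 and MLT2C1 and was not found in those of MamGypLTR3a or HERVK-int. Among 306 members of 250 to 450 bp, 88 (28.8%) held it on their own strand and 41 (13.4%) on the opposite strand. Of 122934 gene-distant elements of this length the shares were 31.4% and 17.4%, so the motif was about as common in the members as in gene-distant elements at large.

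Short elements were rare among the members, and few reads lay behind many of them. Their median length was 392 bp (range 128 to 4075), against 339 bp for all gene-distant elements. Under 200 bp were 6.52% of members and 32.5% of gene-distant elements. At the median length of members, a TPM of 10 stood for 2.94 to 4.36 reads, depending on the library. The total over 6 libraries ranged from 10 to 3964 reads per member with a median of 75. In 146 members (25.0%) every library had at least 10 reads, and 208 (35.7%) had 10 or more reads in a library of each line. By contrast, 143 members had under 5 reads in the best library of some line. Among elements near or inside transcripts that met the same TPM rule, 26.6% had 10 reads in every library. The mean TPM of members over the lines had a median of 31.1 (range 10.5 to 774), and 31.3 near or inside transcripts. Together the members took 2.34% to 4.04% of all LTR TPM in a library.

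Of the 583 members, 346 reached a TPM of 10 in all 6 libraries. In 30 members at least 1 technical replicate was at 0, where 3 reads would have been worth 6.29 to 29.9 TPM. Across members, the technical replicates of CHLA 04 had a Pearson's r of log2(TPM + 2) of 0.794, and those of CHLA 06 had 0.712. The median absolute difference was 0.618 and 0.537 on the log2 scale. Members are not independent of each other, and these values cover technical spread only. The members nearest to the TPM limit were MLT1F2 on chromosome 12 (10.02 in its weakest line), HERVS71-int on chromosome 8 (10.03) and MLT1D on chromosome 9 (10.06). Just outside it were an MLT1D on chromosome 5 and an LTR33 on chromosome 8, both at 9.99, and a MER76 on chromosome 5 at 9.95. By distance, an MLT1H1 at 10011 bp and a pair of MLT1F2 at 10044 and 10049 bp were just inside. MLT1D, MLT1B and MER101 elements at 9999, 9994 and 9989 bp were just outside.

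By name, the members resembled gene-distant elements in general. The main exceptions were higher shares of MST and HML-2 names and a lower share of other LTR names. ERVL-MaLR names made up 314 members (53.9%), against 47.2% of gene-distant elements and 50.9% of elements near or inside transcripts. MLT1 led with 179 members (30.7%), a share close to the 31.0% among gene-distant elements. MST held 78 members (13.4%), against 7.27% of gene-distant elements and 9.29% of elements near or inside transcripts. Of these 78, 27 lay in only 2 clusters on chromosome 9. Outside these clusters MST made up 9.21% of the members, close to the share near or inside transcripts. HML-2 names held 12 members (2.06%), against 0.164% of gene-distant elements and 0.644% near or inside transcripts. Of all gene-distant HML-2 elements, 2.20% were members. All other names that begin with LTR, a mixed set of families, held 104 members, MER names 76, THE1 57 and MLT2 23. The single names with most members were MSTA (37), MLT1D (28), MSTA-int (20), THE1B (19) and MLT1C (18). Internal sequences were 121 members (20.8%), against 15.3% of gene-distant elements and 12.0% near or inside transcripts.

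**Figure D1:**
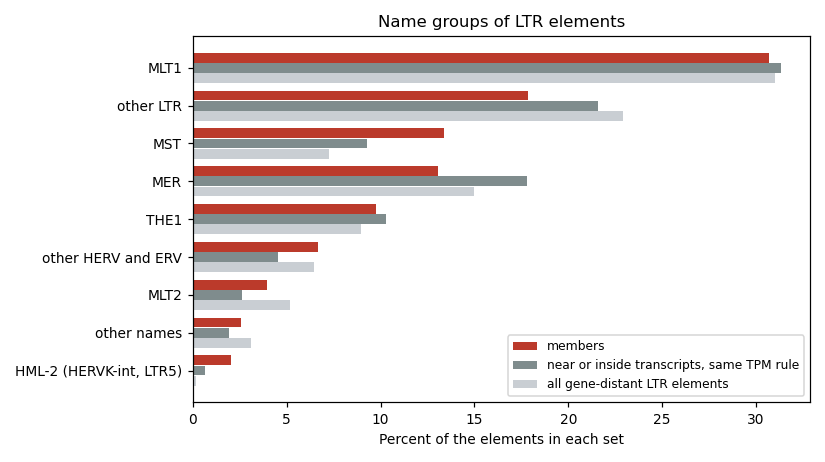
Percent of elements (horizontal axis) in each group of RepeatMasker names, for the 583 members, the 9162 elements near or inside transcripts that met the TPM rule and the 333195 gene-distant elements. The members have longer bars than gene-distant elements for MST (13.4% and 7.27%) and HML-2 (2.06% and 0.164%), and nearly equal ones for MLT1. Elements near or inside transcripts lie between them for MST (9.29%) and HML-2 (0.644%).

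The lead of MLT1 depended on thinly covered elements. MLT1 members had a median of 57 reads over the 6 libraries, and 32 of 179 (17.9%) had 10 reads in a library of each line. All 12 HML-2 members met that limit, as did 29 of 57 THE1 members (50.9%) and 24 of 39 members with other HERV or ERV names (61.5%). When at least 10 reads in a library of each line were required, 208 members were left and the ERVL-MaLR share was 43.8%. The mixed set of other LTR names was then the leading name group with 17.8%. The median length was 355 bp in MLT1, 790 bp in other HERV and ERV names and 971 bp in HML-2.

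Members stood in runs along the genome and mostly faced one way within a run. Chained at gaps of up to 10000 bp, they formed 284 clusters. Of these, 168 held a single member, and the other 116 held 415 members (71.2%). In 23 clusters there were 5 or more members, 179 (30.7%) in all. Among 61 clusters of 3 or more members, only 4 held both orientations, and 296 of their 305 members lay on the majority strand of their cluster. The spans of these clusters also held 168 other LTR elements on the majority strand and 122 on the opposite strand. On the majority strand, 117 of the others (69.6%) had reads and their median of mean TPM was 5.27. On the opposite strand 23 (18.9%) had reads and the median was 0. The library kit kept the strand of the RNA, but whether counting used it is not given in the sources used here. Over all elements inside transcript spans of 1 strand, 36.3% lay on the strand of the transcripts, whereas among the 7384 of them that met the TPM rule 95.2% did. Levels of members are read below as those of 1 strand.

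Chromosome 9 held 105 members (18.0%), more than any other. There 0.681% of gene-distant elements were members. It was followed by chromosome 2 with 76 members, chromosome X with 56, chromosome 8 with 49 and chromosome 5 with 42. The share of gene-distant elements that were members was 0.285% on chromosome 2, 0.219% on X, 0.560% on chromosome 19 (13 members) and 0.0225% on chromosome 14 (2 members). No member lay on chromosome Y, where 5963 elements were gene-distant.

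The most abundant members formed a pair of mirrored arrays on chromosome 9, which were high in the other lines and low in CHLA 06. The first, from 64440545 to 64454762, held 15 members on the plus strand, and the second, from 66066938 to 66081986, held 14 on the minus strand. All were MSTA, MSTA-int or THE1D-int, and 10 pairs between the arrays had 97.7% to 99.7% identity. End to end, the shorter span matched the inverse of the longer one at 93.4%. GENCODE 44 places each array in an intron of a long noncoding RNA gene of the same strand, ENSG00000289725 and ENSG00000286945. Neither identifier was among the measured transcripts.

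In the plus strand array, the median over the 15 members was 357 TPM in CHLA 02. It was 535 and 426 TPM in the CHLA 04 replicates and 313 TPM in CHLA 05. In the CHLA 06 replicates it was 18.2 and 13.5 TPM. Both CHLA 06 libraries lay below every other library in all 15 members. The same held for 13 of 14 members of the minus strand array, where the medians were 296 TPM in CHLA 02, 413 and 346 TPM in CHLA 04, 328 TPM in CHLA 05, and 51.6 and 28.0 TPM in CHLA 06. Over the 29 members of both arrays, the highest line mean was 2.69 to 78.6 times the lowest, with a median of 18.0. The arrays took 0.951% to 1.59% of LTR TPM in the libraries of CHLA 02, CHLA 04 and CHLA 05, and 0.115% and 0.0777% in those of CHLA 06.

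MSTA-int at chr9:66078992-66079630, in the minus strand array, was the most abundant member of all. It stood at 755 TPM in CHLA 02, 1948 and 1083 TPM in the CHLA 04 replicates, 692 TPM in CHLA 05 and 160.3 and 107 TPM in the CHLA 06 replicates. The means were 1515 ± 611 (SD, n = 2 technical replicates) in CHLA 04 and 133 ± 38.0 in CHLA 06, so CHLA 06 was below all other libraries and both CHLA 04 replicates were above CHLA 02 and CHLA 05.

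Reads from these arrays are hard to place. Of the 29 members, 1 had only windows of 125 bases that occur once in the genome and 10 had none. How the reads were divided between copies is not given in the sources used here, so the level of 1 copy cannot be separated from that of its partners. The measured genes beside the minus strand array, both on the minus strand, were also lowest in CHLA 06. The gene listed as FAM95B1_2 was at 17.8 TPM in CHLA 02, 36.7 and 17.4 TPM in CHLA 04, 13.3 TPM in CHLA 05 and 1.69 and 1.93 TPM in CHLA 06. ANKRD20A3 was at 29.6, 50.9, 31.9, 29.5, 16.2 and 11.6 TPM in the same libraries. CYP4F25P, the pseudogene nearest to the plus strand array, was between 0 and 1.95 TPM. Their part in the levels of the array was not tested.

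**Figure D2:**
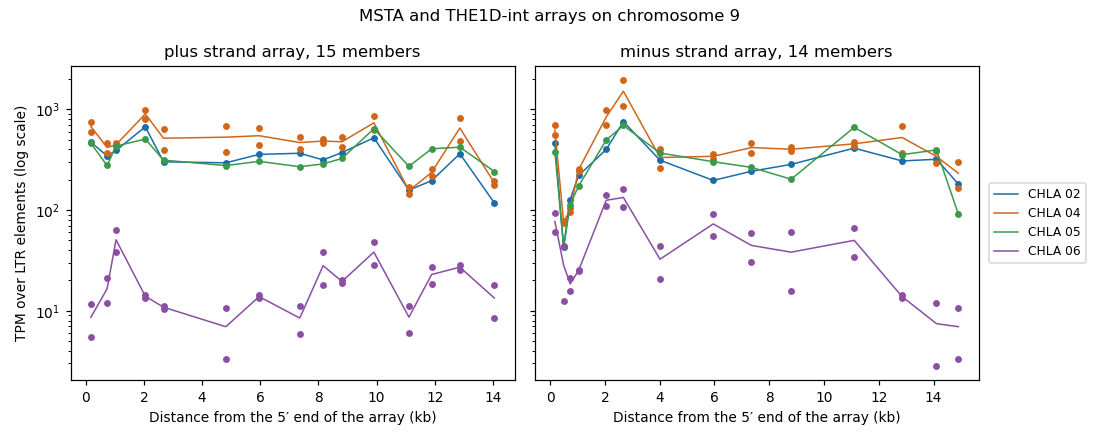
TPM (vertical log axis) of each member of the arrays on chromosome 9 against the distance of its midpoint from the 5′ end of the array in kb. Points are libraries and lines join the means of a cell line. CHLA 06 lies below the other lines in both panels, with array medians of 18.2 and 13.5 TPM on the plus strand and 51.6 and 28.0 TPM on the minus strand.

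Near-identical copies were common among the members elsewhere on chromosome 9 and on chromosome 5. In all, 85 members (14.6%) had another member of at least 95% identity, in 36 sets of up to 4, and 48 of the 85 were on chromosome 9. The 13077 bp from 40080025 to 40093101 on chromosome 9 matched the inverse of a cluster from 41372384 to 41385468 at 99.0%. On chromosome 5, 4 clusters between 69971592 and 71166425 repeated one stretch of 8106 to 8310 bp at 97.1% to 99.8%. GENCODE 44 gene ENSG00000288891 on chromosome 9 held 17 members between 41372384 and 41497698, 16 of them on its strand, and CHLA 05 was the highest line in 15. None of the 17 had only unique windows, so their levels may include reads from copies elsewhere. Over all members, 397 (68.1%) had only unique windows, 114 (19.6%) had under 50% unique and 64 (11.0%) had none. Near or inside transcripts the shares were 93.3%, 3.34% and 2.41%. Without chromosome 9, 13.6% of 478 members had under 50% of windows unique.

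A run of members without any such ambiguity lay on chromosome 2 between SCG2 and AP1S3, both genes of the minus strand. SCG2 encodes secretogranin II, a protein of neuroendocrine secretory granules, and AP1S3 a subunit of the clathrin adaptor complex AP-1. Chained at gaps of up to 50000 bp, 23 members stood in 110254 bp from 223614261 to 223724514, and all were on the minus strand. Only 2 other LTR elements of that strand lay there, at a mean of 1.74 and 8.88 TPM. The 17 LTR elements on the plus strand were at 0 in all 6 libraries, which allows up to 0.556 to 0.826 TPM per library over their 4848 bp. The 23 members had 5929 reads in all.

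In the largest cluster of this run, from 223632431 to 223654754, all 12 members were lowest in CHLA 05, and in 11 of 12 the CHLA 05 library lay below every other library. The medians over the cluster were 147 TPM in CHLA 02, 133 and 209 TPM in CHLA 04, 78.4 TPM in CHLA 05 and 132 and 142 TPM in CHLA 06. The 12 names were drawn from 10 different repeats, among them LTR37A, LTR67B, MER4A1, MLT1L and THE1B. The spread between lines was small, with a ratio of highest to lowest line of 1.51 to 3.23. MER65A at chr2:223717518-223717897 was the most abundant member of the run. It stood at 212 TPM in CHLA 02, 116 and 258 TPM in the CHLA 04 replicates, 191 TPM in CHLA 05 and 318 and 308 TPM in the CHLA 06 replicates. Only CHLA 06 was apart from the rest, since the CHLA 04 replicates spanned the levels of CHLA 02 and CHLA 05.

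The flanking genes shared only part of the line order of the run. SCG2 was lowest in CHLA 05, as were most members of the run, whereas AP1S3 was lowest in CHLA 04. SCG2 was at 879 TPM in CHLA 02, 232 and 408 TPM in CHLA 04, 215 TPM in CHLA 05 and 1626 and 1389 TPM in CHLA 06. AP1S3 was at 98.0 TPM in CHLA 02, 6.85 and 27.2 TPM in CHLA 04, 79.2 TPM in CHLA 05 and 128 and 129 TPM in CHLA 06. Among the 23 members, CHLA 04 and CHLA 06 were each the highest line in 10, and CHLA 05 was the lowest in 20. In GENCODE 44 the AP1S3 gene is longer than in the transcript files and reaches 10 of the 23 members, while the 12 members of the largest cluster lie in no gene.

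A second run followed ZMAT3 on chromosome 3. ZMAT3, a target of p53, encodes a zinc finger protein that binds RNA. The 20 members between 178930140 and 179001635 were all on the minus strand, as is ZMAT3, and lay beyond its 3′ end. Of 19 LTR elements on the plus strand there, 16 were at 0 and the highest had a mean of 0.433 TPM. CHLA 04 was the highest line in all 20 members and CHLA 05 the lowest in 19. The medians of line means were 87.5 TPM in CHLA 02, 153 TPM in CHLA 04, 28.7 TPM in CHLA 05 and 42.3 TPM in CHLA 06. ZMAT3 itself was at 108 TPM in CHLA 02, 130 and 116 TPM in CHLA 04, 58.5 TPM in CHLA 05 and 75.4 and 60.3 TPM in CHLA 06. Its line means had this order too. However, CHLA 02 differed from the lower CHLA 04 replicate by less than the CHLA 04 replicates differed from each other. The same held for CHLA 05 and the lower CHLA 06 replicate, so the full order of the gene was not resolved.

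In the cluster of 12 members nearest to ZMAT3, from 178977092 to 179001635, CHLA 05 was below every other library in all 12. The ratio of highest to lowest line was 1.98 to 9.21 there. ZMAT3 had means of 123 TPM in CHLA 04 and 58.5 TPM in CHLA 05, but on the scale of genes. These spreads cannot be set side by side. LTR1B, at the end towards ZMAT3, stood at 78.2 TPM in CHLA 02, 412 and 158 TPM in CHLA 04, 31.2 TPM in CHLA 05 and 47.6 and 61.9 TPM in CHLA 06. GENCODE 44 extends ZMAT3 over 13 of the 20 members. It places the 2 members farthest from ZMAT3 in the long noncoding RNA gene KCNMB2-AS1, on the strand of that gene. KCNMB2-AS1 was at 4.27 and 2.47 TPM in CHLA 04 and at 0.341 TPM or less in the other libraries.

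**Figure D3:**
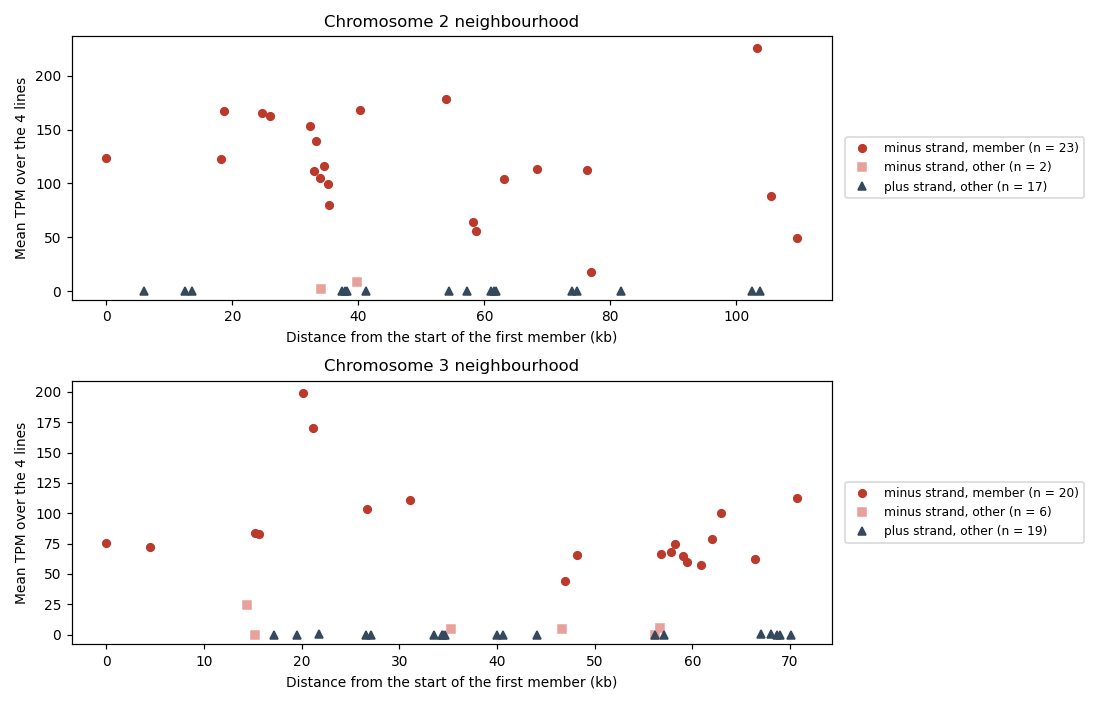
Mean TPM over the 4 lines (vertical axis) of every LTR element in the runs on chromosome 2 and chromosome 3 against the distance from the start of the first member in kb. Circles are members, squares other elements on the minus strand and triangles elements on the plus strand. The 17 and 19 plus strand elements lie on or near 0, between members that reach 226 and 199 TPM.

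The largest cluster with both orientations lay on chromosome 8 from 12532071 to 12567443, and its strands differed in line order. All of its 15 members were inside the GENCODE 44 long noncoding RNA gene ENSG00000283674, which is on the minus strand and was not among the measured transcripts. Only 6 of the 15 had nothing but unique windows, so the levels of the others may include reads from copies elsewhere. The 11 members on the minus strand had a median of 23.4 TPM in CHLA 02, 67.0 and 65.8 TPM in CHLA 04, 71.1 TPM in CHLA 05 and 19.4 and 45.2 TPM in CHLA 06. For the 4 members on the plus strand the medians were 96.1 TPM in CHLA 02, 108 and 104 TPM in CHLA 04, 77.9 TPM in CHLA 05 and 56.4 and 56.7 TPM in CHLA 06. CHLA 02 was above CHLA 05 in 3 of the 4 plus strand members and in 0 of the 11 on the minus strand. The plus strand members were an MLT1F2, an MLT1H, a HERVK-int and an LTR5A. The minus strand ones included 3 HERVK11-int, a MER11C and a THE1B, THE1B-int, THE1B triplet.

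Some members were far from any measured transcript, though less often than gene-distant elements at large. The median distance was 23336 bp, against 54790 bp for all gene-distant elements. Over 50000 bp away lay 120 members (20.6%), against 52.9% of gene-distant elements. MamGypLTR3a at chr2:94189549-94189951 was the only element outside the chromosome 9 arrays among the 10 most abundant, and lay 386025 bp from the nearest transcript. It stood at 508 TPM in CHLA 02, 533 and 308 TPM in CHLA 04, 235 TPM in CHLA 05 and 229 and 183 TPM in CHLA 06. The CHLA 04 mean of 421 ± 160 (SD, n = 2 technical replicates) covered the CHLA 02 level but neither of the other lines. All of its windows were unique, and neither it nor the MSTA1 beside it lay in a GENCODE 44 gene.

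On chromosome 20, LTR53 elements near the centromere were members at a pair of sites. LTR53-int at chr20:28563436-28564716 lay 1714190 bp from the nearest measured transcript, the longest distance of any member. In GENCODE 44, however, it lies in the long noncoding RNA gene ENSG00000291100, on the strand of that gene. The element stood at 92.3 TPM in CHLA 02, 11.5 and 14.0 TPM in CHLA 04, 119 TPM in CHLA 05 and 181 and 195 TPM in CHLA 06. CHLA 04, at 12.8 ± 1.82 (SD, n = 2 technical replicates), was far below the other lines. At the second site, the LTR53-int at chr20:29457767-29459075 was 89.2% identical to the first. It was at 58.4 TPM in CHLA 02, 49.99 and 39.8 TPM in CHLA 04, 123 TPM in CHLA 05 and 75.9 and 102 TPM in CHLA 06. Both of these elements were lowest in CHLA 04, but the range was 14.7-fold in the first element and 2.75-fold in the second. Of 178 gene-distant LTR53-int elements, 6 (3.37%) were members.

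Many members lay in genes that the measured annotation did not hold or held with a shorter span. In GENCODE 44, 284 members (48.7%) were inside a gene, against 14.9% of gene-distant elements, and 40 touched an exon. For 163 members the genes had no identifier in the transcript files, 198 members lay only in long noncoding RNA genes and 80 in protein-coding genes. Where the genes had 1 strand, 252 of 280 members were on it. More than 10000 bp from every GENCODE 44 gene as well were 196 members (33.6%), against 72.3% of gene-distant elements. LINC01473 on chromosome 2, which was measured with a shorter span, held 13 members, with CHLA 06 the highest line in 11. The gene itself was at 9.12 TPM in CHLA 02, 3.41 and 3.05 TPM in CHLA 04, 3.61 TPM in CHLA 05 and 7.35 and 8.80 TPM in CHLA 06. ENSG00000225689 on chromosome X, also measured, held 13 members, with CHLA 06 the highest line in 12. The gene as measured was at 0.983 and 0.301 TPM in CHLA 04 and at 0 in the other libraries, CHLA 06 included. These levels are too low to give the gene an order of lines. Its measured span ended at 128600468, and its first member began at 129124767. The gene of the nearest transcript had a TPM of 10 or more for 287 members (49.2%), against 20.0% of gene-distant elements. The nearest end was its 3′ end for 49.9% of members and 52.5% of gene-distant elements.

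Member levels varied more between lines than those of elements near or inside transcripts, and chromosome 9 held much of this excess. The highest line mean was a median of 2.82 times the lowest in members and 2.30 times in the other set. It was at least 4 times the lowest in 160 members (27.4%), where 18.1% of all 9745 elements under the TPM rule were. Of these 160, 72 lay on chromosome 9. Without that chromosome, 88 of 478 members (18.4%) had a ratio of 4 or more, against 17.0% of all elements under the rule. Under 2-fold were 145 members (24.9%) and 37.1% of the elements near or inside transcripts.

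CHLA 06 was the line most often apart at the low end over all members, but not without chromosome 9. Both of its libraries were below all others in 119 members (20.4%), where 13.0% of all elements under the rule were. Chromosome 9 held 55 of these. Without it, CHLA 06 was below all in 64 of 478 members (13.4%, against 12.1% of all elements), CHLA 04 in 83 (17.4%, against 16.3%), CHLA 05 in 73 (15.3%, against 10.1%) and CHLA 02 in 24 (5.02%, against 10.02%). Among the 397 members with only unique windows, CHLA 05 was below all in 74 (18.6%), CHLA 04 in 61 (15.4%), CHLA 06 in 49 (12.3%) and CHLA 02 in 16 (4.03%). The shares of all elements with only unique windows were 9.95%, 16.3%, 12.1% and 9.82% in the same order. CHLA 06 was above all other libraries in 102 members (17.5%), against 16.1% of all elements. CHLA 04 was below all in 95 members (16.3%), the same as the 16.3% of all elements, and above all in 93 (16.0%), where 9.89% of all elements were.

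CHLA 05 was above all other libraries in 112 members (19.2%), against 25.0% of all elements, and below all in 78 (13.4%), against 9.86%. The 78 came from 42 clusters, and the largest clusters of the runs beside SCG2 and ZMAT3 gave 11 and 12 of them. CHLA 02 was below all in 26 members (4.46%), against 9.85%, and above all in 66 (11.3%), against 9.94%. By the number of libraries alone, a line with 1 library meets these conditions more easily than one with 2. At the low end the TPM rule matters as well, in members and background alike. It held CHLA 02 and CHLA 05 at 10 TPM or more, while a single replicate of CHLA 04 or CHLA 06 could be at 0. In the background, CHLA 04 was below all in 16.3% and CHLA 06 in 13.0%, more often than either line with 1 library. Since members of one cluster can share a transcript, the counts are not counts of independent events.

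**Figure D4:**
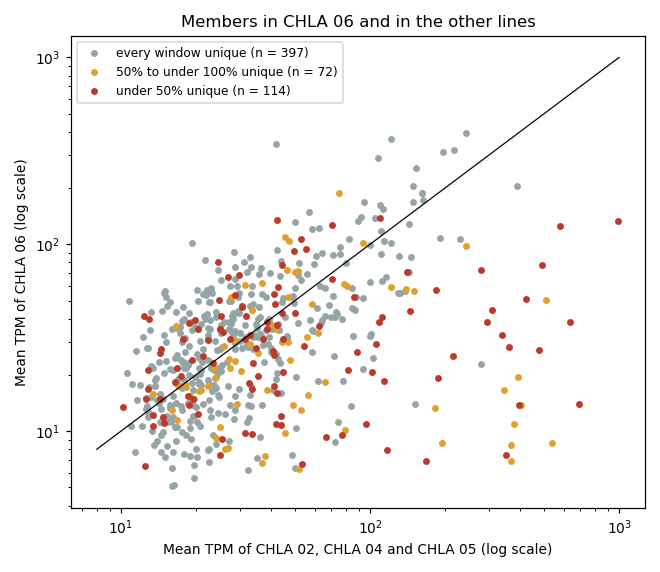
Mean TPM of each member in CHLA 06 (vertical log axis) against its mean in CHLA 02, CHLA 04 and CHLA 05 (horizontal log axis), with the line of equal levels. Colors give the share of windows of 125 bases that are unique in the genome. Most members lie along the line, and those far below it at the right are mainly chromosome 9 elements with windows that are not unique.

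All 12 HML-2 members had 10 or more reads in a library of each line, and their median ratio between lines was below that of all members. The ratio of highest to lowest line ranged from 1.31 to 3.24 with a median of 1.97, against 2.82 for all members. In the other name groups the median ran from 2.24 (MER) to 4.46 (MST). Read support was not matched here, with a median of 160.5 reads in HML-2 and 75 in all members. Only 6 of the 12 had nothing but unique windows, so the levels of the others may include reads from copies elsewhere. The HERVK-int members on chromosomes 4 and 8 were 95.6% identical. Mean levels were 17.0 to 78.1 TPM. Sites on chromosomes 2, 3, 4 and 8 had a HERVK-int beside an LTR5 element, and the other sites, among them a second one on chromosome 4, had an LTR5 element alone. The LTR5A at chr8:12565980-12567003 was the most abundant, at 83.4 TPM in CHLA 02, 102 and 79.0 TPM in CHLA 04, 80.5 TPM in CHLA 05 and 66.0 and 50.6 TPM in CHLA 06. The HERVK-int beside it was at 75.9, 87.5, 88.3, 57.6, 44.7 and 39.8 TPM in the same libraries, so both were lowest in CHLA 06.

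On chromosome 2, the HERVK-int at chr2:186521159-186521438 was highest, not lowest, in CHLA 06. It stood at 53.2 TPM in CHLA 02, 57.2 and 54.6 TPM in CHLA 04, 47.1 TPM in CHLA 05 and 80.5 and 78.7 TPM in CHLA 06. Only CHLA 06, at 79.6 ± 1.24 (SD, n = 2 technical replicates), was outside the range of the others, although the Wilson interval of its first library, 53.2 to 122 TPM from 22 reads, reached them. The nearest gene, ZC3H15, was highest in CHLA 06 as well, at 161 and 157 TPM, against 125 TPM in CHLA 02, 73.0 and 96.6 TPM in CHLA 04 and 92.1 TPM in CHLA 05. On chromosome 3, the HERVK-int at chr3:101698340-101699951 was at 77.6 TPM in CHLA 02, 37.3 and 27.9 TPM in CHLA 04, 39.6 TPM in CHLA 05 and 68.0 and 74.9 TPM in CHLA 06. CHLA 02 and CHLA 06 did not differ beyond the replicate spread there, and CHLA 04 and CHLA 05 were both lower. It lies in the GENCODE 44 pseudogene PDCL3P4, near RPL24. The least abundant was the LTR5_Hs at chr4:174400760-174401732, at 9.24 to 24.7 TPM, with replicates of 1 line at both ends of that range. The LTR5_Hs at chr19:39959231-39960162 was the most even of the 12, at 23.1 to 31.5 TPM.

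**Figure D5:**
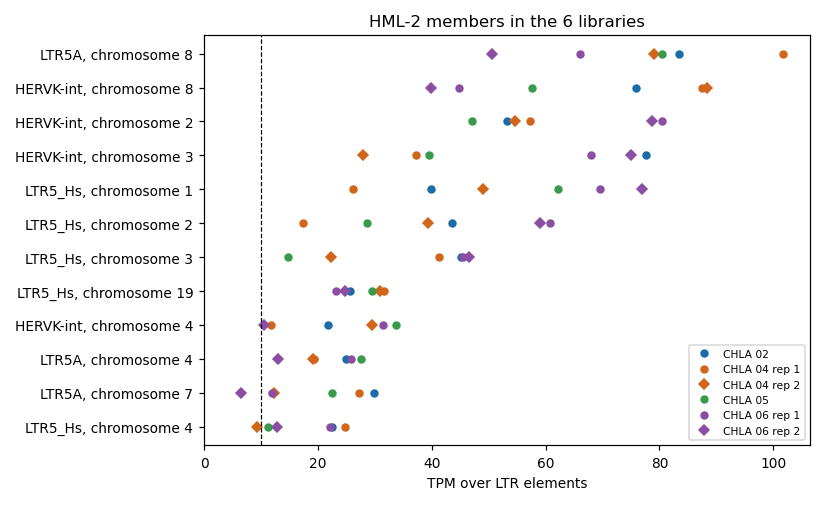
TPM (horizontal axis) of the 12 HML-2 members in each of the 6 libraries, ordered by mean level, with the threshold of 10 TPM as a dashed line. Colors are cell lines and diamonds are second technical replicates. The members on chromosome 8 lie to the left in CHLA 06 and those on chromosome 2 lie to the right.

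The longest members were internal sequences. HERVE-int at chr7:97951319-97955393 spanned 4075 bp and had 882 reads. It was at 45.8 TPM in CHLA 02, 54.4 and 22.3 TPM in CHLA 04, 49.4 TPM in CHLA 05 and 37.2 and 22.6 TPM in CHLA 06. The technical replicates covered the range of all lines, so no order could be given. HERVK22-int at chr6:57071114-57074287 had 885 reads. It was at 58.1 and 81.9 TPM in CHLA 06, 20.6 and 27.5 TPM in CHLA 04, 44.7 TPM in CHLA 02 and 50.2 TPM in CHLA 05. CHLA 06 was thus above and CHLA 04 below the other lines. The single libraries of CHLA 02 and CHLA 05 differed by less than the replicates of either line did. The HERVL-int at chr18:69973064-69976589 was at 21.8 to 49.3 TPM, the HERVL-int at chr6:80386457-80390104 at 9.99 to 24.2 TPM and HERVH48-int at chrX:57220438-57224273 at 11.5 to 19.4 TPM.

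Among members with at least 10 reads in every library, the 5 with the largest ratio between lines were 4 from the chromosome 9 arrays, from 19.2 to 39.6, and the first LTR53-int of chromosome 20. At the other end, MER50-int at chr4:177184-177646, which GENCODE 44 places in ZNF718, had a ratio of 1.12. It stood at 32.2 TPM in CHLA 02, 28.8 and 38.8 TPM in CHLA 04, 35.6 TPM in CHLA 05 and 24.3 and 39.3 TPM in CHLA 06, so its replicates differed more than its lines. ZNF718, a zinc finger gene, was at 12.0 to 18.8 TPM. MLT1J2 at chr13:19606234-19606585, HERVK11-int at chr8:8129490-8131209, MSTA-int at chrX:75728646-75730204 and PRIMA41-int at chr19:39949248-39951171 followed, with ratios of 1.18 to 1.20. MLT2C1 at chr1:9152477-9152864, in MIR34AHG, the host gene of the microRNA miR-34a, was at 171 TPM in CHLA 02, 189 and 218 TPM in CHLA 04, 278 TPM in CHLA 05 and 314 and 329 TPM in CHLA 06. The lines did not overlap there, over a range of 1.87-fold. However, the CHLA 02 library differed from the lower CHLA 04 replicate by less than the CHLA 04 replicates differed from each other.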

How the data were processed

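Total RNA libraries were prepared by the authors with a stranded kit and sequenced as paired reads of 125 bp. The authors trimmed the reads with Trimmomatic after CASAVA 1.8.2, mapped them to GRCh38 in the CLCbio workbench at default settings and deposited TPM for Ensembl release 82 transcripts and, from a separate mapping, TPM for RepeatMasker LTR elements. The submitters' processing notes name FastQC too. Other versions, the use of strand in counting and the placing of reads with several matches are not given in the sources used here. Gene TPM is the sum over transcripts.

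From TPM times length, reads were recovered as multiples of the step that 1 read contributes. In each library at least 99.996% of values above 0 were whole within 0.1 read. One read on 1000 bp was worth 0.899 to 1.34 TPM. Recovery was tested on simulated data for these libraries, where 100% of 41444 or more elements came out exactly. Intervals are Wilson intervals at the 95% level and, like the limits at 3 reads, cover counting error only.

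Technical replicates were averaged for a line mean. Windows of 125 bases were counted on both strands of GRCh38 without alternate contigs, and identities came from edit distances (edlib 1.3.9.post1, numpy 2.4.6, pandas 2.3.3, Python 3.11.15).

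No test was made between lines. The members and lists were chosen with earlier results of these data known. Named members were the 10 with the highest mean TPM, the 10 with most reads, the 5 clusters with most members, the 5 longest, the 5 with the largest and smallest ratio between lines among those with 10 reads in every library, the 3 at each side of a threshold, and all HML-2 members. MSTA1 and the LTR53 elements, MER65A and MLT2C1, the runs at 50000 bp, ENSG00000288891, LINC01473 and ENSG00000225689 were named after their values were seen. The gene listed as FAM95B1_2 has another symbol in GENCODE 44. Some elements that the rule names are not reported here. Alternatives were other thresholds, distances, gaps, read and length limits, quantile normalization, and each technical replicate left out.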

Additional observations from a re-analysis of the deposited data

How the results depend on the processing

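With a TPM threshold of 5 there were 1220 members (0.366% of gene-distant elements) in 577 clusters, and with 20 there were 232 (0.0696%) in 123. At over 5000 bp from transcripts there were 907 (0.241%) in 466 clusters, at over 50000 bp 120 (0.0681%) in 58, and with GENCODE 44 genes added 196 (0.0813%) in 114. When every library had to reach the threshold, 346 (0.104%) in 176 clusters were left, and with 10 reads in a library of each line 208 (0.0624%) in 103, of which 43.8% had ERVL-MaLR names. The mean of technical replicates gave 0.146% and elements of at least 200 bp gave 0.242%. Leaving out 1 technical replicate gave 510 to 530 members, 0.153% to 0.159% of gene-distant elements. Gaps of up to 1000 bp gave 429 clusters. The median ratio between lines was 2.64 with a pseudocount of 2 and, chosen after seeing the data, 2.60 in members with only unique windows. With a pseudocount of 0.1, r between replicates was 0.651 in CHLA 04 and 0.548 in CHLA 06. The leading name group was MLT1 at 35.2% with GENCODE 44 genes added. With 10 reads in a library of each line it was the mixed set of other LTR names at 17.8%. Apart from these values, the alternatives moved no value by more than its interval or 1.5 times. No paired analysis was possible because each line was 1 biological sample and no result came from a test.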
